A study of Homo sapiens with 6 samples.

Results

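The genes described here encode heavy chains of major histocompatibility complex class I molecules, namely HLA-B, HLA-C, HLA-E, HLA-F and HLA-G, their shared light chain B2M (beta-2-microglobulin), and the class I-related stress ligands MICA and MICB. They are 8 of the 61541 genes listed in the count files and were chosen by name, through their Ensembl identifiers on the primary assembly. RNA came from RCC4, an established human clear cell renal carcinoma line, and was read as native poly(A) RNA by direct RNA nanopore sequencing. Untreated cells (3 libraries) were compared with cells exposed for 24 h to IFNγ at 1000 U/mL together with TNF at 25 ng/mL (3 libraries). Per the labels each library is a separate biological replicate made from 3 pooled flasks, and all come from this 1 line.

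A classical class I molecule such as HLA-B or HLA-C is a heavy chain that binds B2M and a short peptide in the endoplasmic reticulum and presents the peptide to CD8 T cells at the cell surface. HLA-E mainly presents peptides cut from the leader sequences of other class I chains and is read by the CD94-NKG2 receptors of natural killer cells, and HLA-F and HLA-G are non-classical chains with a narrower expression. MICA and MICB bind neither B2M nor peptide and engage the activating receptor NKG2D. Interferon gamma acts on class I promoters through interferon regulatory factors and the transactivator NLRC5, and TNF acts through NF-kappaB.

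Libraries held between 3626000 and 4406296 counts, and levels are given as CPM, counts per 1000000 of the normalised library. Markers of renal carcinoma epithelium were present, with 7 of 7 tested and a summed level of 6174 to 7753 CPM in untreated and 8479 to 11581 CPM in treated libraries. Of these 1 was called lower with the cytokines (PAX8, 145 ± 16.6 against 83.8 ± 11.5 CPM; SD, n = 3 each) and 1 higher (VIM, at 0.66 in log2). Of 8 leukocyte markers 6 had 0 counts in all libraries, PTPRC included, and their summed level lay between 0 and 0.449 CPM. All 3 endothelial markers had 0 counts. Of the fibroblast markers, DCN had 0 counts, COL1A1 was not called (55.5 against 36.1 CPM) and PDGFRB was called lower (10.3 against 2.71 CPM). The part of these marker changes in the results was not tested.

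Of the 8 genes, 6 passed edgeR's quasi-likelihood test (adjusted p under 0.05) as higher with the cytokines, 1 (MICA) was tested and not called, and 1 (HLA-G) had no counts. Over all 10067 genes tested, 5.58% were called higher. In these 6 genes the lowest treated library was above the highest untreated one, which was so for 13.9% of the tested genes. The 8 genes together held 0.130%, 0.142% and 0.207% of all counts in untreated replicates 1, 2 and 3, and 0.730%, 0.901% and 1.03% in the treated ones. The group means were 0.160% ± 0.0414 and 0.889% ± 0.153 (SD, n = 3 each), a ratio of 5.55. In bulk RNA, more cells expressing a gene and more RNA per cell cannot be told apart.

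**Figure D1:**
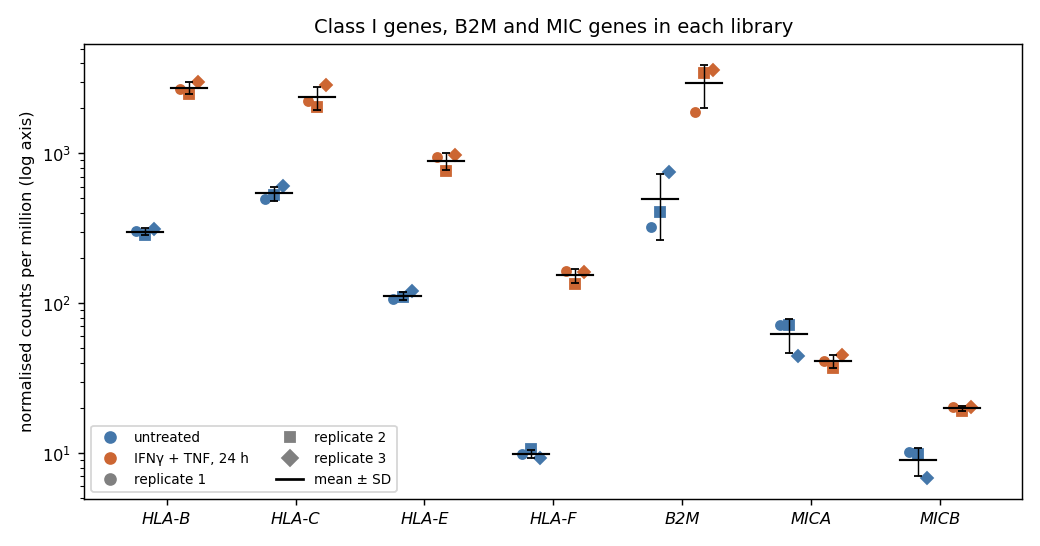
Normalised level (CPM) on a log axis for the 7 genes with counts, in 3 untreated (blue) and 3 treated (orange) libraries, with symbols for replicates and black bars for mean ± SD. The treated libraries lie above the untreated ones in every gene shown except MICA, where the groups overlap.

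The reference promoters are shown because the genes differ in which interferon and NF-kappaB motifs lie close to their start. No link between these motifs and the levels that follow was tested. The windows run from 250 bases before to 50 bases after the start in RefSeq (GRCh38.p14). The table held 7 of the 8 genes, HLA-E having no entry, and of the 3 HLA-G starts the one most like HLA-B is shown. They are reference sequences and not those of RCC4, whose HLA alleles were not examined. Capitals mark every match on either strand to 5 motifs. These are the core of the interferon-stimulated response element (GAAA, 2 free bases, GAAA), the shorter interferon regulatory factor core AANNGAAA that lies within it, a kappaB-like motif (GGG, 2 free bases, TT, 1 free base, CC), the X2 box core TGACG and the Y box CCAAT.
HLA-B promoter, chr6:31357130-31357429, minus strand: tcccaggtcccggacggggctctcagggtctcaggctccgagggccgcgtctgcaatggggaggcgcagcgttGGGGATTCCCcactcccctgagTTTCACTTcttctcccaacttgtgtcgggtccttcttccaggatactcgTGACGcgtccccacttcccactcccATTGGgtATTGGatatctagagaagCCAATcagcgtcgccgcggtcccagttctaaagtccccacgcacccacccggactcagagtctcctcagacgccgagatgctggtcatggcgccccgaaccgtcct
HLA-C promoter, chr6:31272043-31272342, minus strand: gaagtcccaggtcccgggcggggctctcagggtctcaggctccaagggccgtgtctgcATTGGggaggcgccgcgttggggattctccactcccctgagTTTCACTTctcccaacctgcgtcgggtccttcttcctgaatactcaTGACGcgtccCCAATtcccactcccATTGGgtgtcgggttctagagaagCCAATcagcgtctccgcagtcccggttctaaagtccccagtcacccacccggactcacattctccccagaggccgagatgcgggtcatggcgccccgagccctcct
HLA-F promoter, chr6:29723184-29723483, plus strand: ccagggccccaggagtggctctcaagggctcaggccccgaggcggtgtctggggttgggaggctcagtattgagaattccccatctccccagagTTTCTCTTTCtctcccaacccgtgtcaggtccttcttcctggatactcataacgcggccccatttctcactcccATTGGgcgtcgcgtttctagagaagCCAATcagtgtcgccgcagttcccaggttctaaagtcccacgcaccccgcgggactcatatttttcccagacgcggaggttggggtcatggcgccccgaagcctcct
HLA-G promoter, chr6:29827575-29827874, plus strand: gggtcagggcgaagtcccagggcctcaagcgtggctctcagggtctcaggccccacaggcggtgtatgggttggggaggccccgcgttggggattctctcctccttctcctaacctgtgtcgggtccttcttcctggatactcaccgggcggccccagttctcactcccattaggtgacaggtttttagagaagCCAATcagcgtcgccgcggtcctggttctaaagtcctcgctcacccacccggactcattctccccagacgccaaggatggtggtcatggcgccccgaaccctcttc
B2M promoter, chr15:44711267-44711566, plus strand: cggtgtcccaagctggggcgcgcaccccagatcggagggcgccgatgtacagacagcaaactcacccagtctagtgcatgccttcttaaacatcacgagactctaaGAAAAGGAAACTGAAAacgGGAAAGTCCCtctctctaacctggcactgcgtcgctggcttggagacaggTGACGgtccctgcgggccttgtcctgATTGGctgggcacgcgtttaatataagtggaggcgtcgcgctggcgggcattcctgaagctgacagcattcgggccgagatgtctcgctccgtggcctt
MICA promoter, chr6:31403345-31403644, plus strand: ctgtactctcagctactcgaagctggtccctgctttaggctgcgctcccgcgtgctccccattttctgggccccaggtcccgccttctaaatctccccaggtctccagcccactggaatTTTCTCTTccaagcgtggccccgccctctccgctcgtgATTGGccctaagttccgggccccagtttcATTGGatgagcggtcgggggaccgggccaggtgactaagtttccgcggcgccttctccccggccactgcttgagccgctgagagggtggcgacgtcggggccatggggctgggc
MICB promoter, chr6:31497895-31498194, plus strand: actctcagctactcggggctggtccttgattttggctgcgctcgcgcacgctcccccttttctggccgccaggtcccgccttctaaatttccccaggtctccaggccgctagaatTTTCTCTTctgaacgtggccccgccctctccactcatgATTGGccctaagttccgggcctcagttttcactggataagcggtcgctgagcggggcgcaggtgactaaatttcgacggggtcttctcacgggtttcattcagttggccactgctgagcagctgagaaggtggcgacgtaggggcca

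The HLA-B and HLA-C windows were 88.5% identical, HLA-F was 79.2% and HLA-G 74.8% identical to HLA-B, and MICA and MICB were 78.5% identical to each other. The response element core was present in HLA-F, at bases -156 to -147 from the start, and in B2M, where 2 overlapping matches spanned -144 to -129. It occurred in 3.57% of the 35116 promoters in the table. The shorter core, which was added after the first search, was found in HLA-B (-155 to -148), HLA-C (-151 to -144), HLA-F, B2M, MICA (-131 to -124) and MICB (-135 to -128), and in 22.8% of all promoters. HLA-G had no match to it. A kappaB-like match lay in HLA-B at -177 to -168 and in B2M at -125 to -116, against 5.68% of all promoters. The X2 core was matched in HLA-B, HLA-C and B2M (24.6% of promoters), and the Y box was matched in all 7 windows (34.6%). The interferon gamma activation site TTCNNNGAA, searched in the same way, had no match in these windows and was found in 7.66% of promoters. A match is a description of letters and says nothing about binding.

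**Figure D2:**
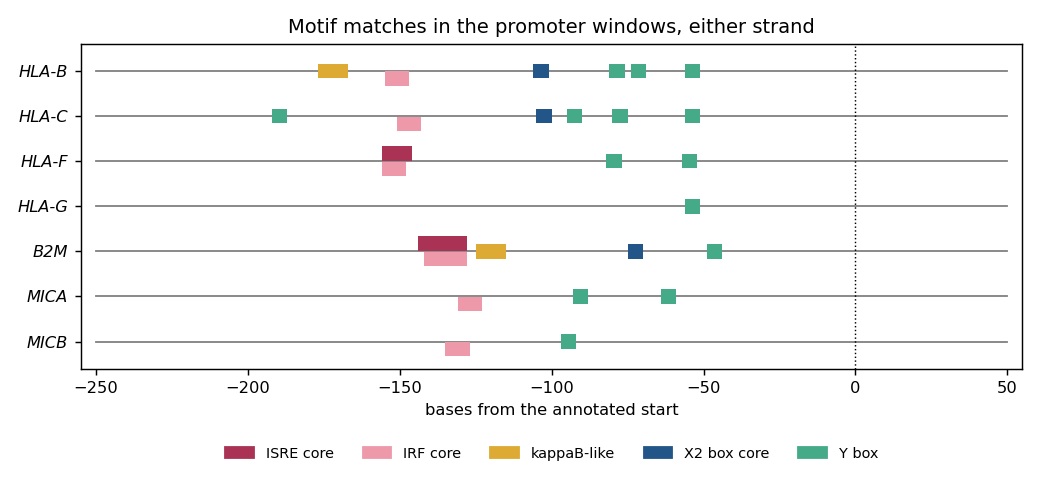
Positions of motif matches in bases from the annotated start (dotted line at 0) for 7 promoter windows, coloured by motif. The response element core appears in HLA-F and in B2M, where the 2 matches overlap, the kappaB-like motif appears in HLA-B and B2M, and HLA-G holds a Y box alone.

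Among the classical heavy chains, HLA-B (ENSG00000234745; GRCh38 chromosome 6, 31353872 to 31357188) stood at 303, 283 and 314 CPM in untreated replicates 1, 2 and 3. The treated replicates stood at 2707, 2501 and 3002 CPM, so that the lowest treated library was far above the highest untreated one. The rise was 9.12-fold in mean CPM, or 3.19 in log2 (SE 0.16), with adjusted p 6.44e-06 from edgeR. HLA-C (ENSG00000204525; chromosome 6, 31268749 to 31272130) was at 494, 524 and 604 CPM in untreated and at 2237, 2043 and 2846 CPM in treated libraries. Its groups did not overlap either, and the rise was smaller, 4.39-fold (log2 fold change 2.13, SE 0.18, edgeR adjusted p 0.00013).

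All untreated libraries held more counts of HLA-C, and all treated ones more of HLA-B. Per count of HLA-B there were on average 1.80 counts of HLA-C in untreated and 0.862 in treated libraries. The log2 ratio of HLA-C to HLA-B, which needs no library scaling, was 0.71, 0.89 and 0.94 in untreated and -0.28, -0.29 and -0.08 in treated replicates 1, 2 and 3. The groups did not overlap and differed by -1.06, against an SD of 0.12 in each group. A 2-sided exact permutation test gave p = 0.1, the smallest that 3 against 3 libraries allow, and 0.133 after adjustment over the 4 ratios planned.

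The non-classical HLA-E (ENSG00000204592; chromosome 6, 30489509 to 30494194) was at 107, 110.1 and 120.3 CPM without cytokines and at 941, 759.8 and 982 CPM after treatment. All treated libraries were several times above all untreated ones (7.95-fold, log2 fold change 2.99, SE 0.18, edgeR adjusted p 1.45e-05). HLA-F (ENSG00000204642; chromosome 6, 29722775 to 29738528) was at 9.91, 10.6 and 9.27 CPM in untreated replicates, from 38, 41 and 41 counts. It reached 163, 135 and 162 CPM in treated replicates, from 568, 599 and 570 counts. Its 15.5-fold rise (log2 fold change 3.95, SE 0.20, edgeR adjusted p 6.44e-06) was the largest fitted change of the 7 tested genes. Among all genes tested, HLA-F ranked 104th, HLA-B 146th, HLA-E 157th, B2M 188th and HLA-C 247th by log2 fold change.

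Relative to HLA-B, HLA-F was higher and HLA-E slightly lower in every treated library. The log2 ratio of HLA-F to HLA-B averaged -4.90 ± 0.17 without and -4.16 ± 0.10 with the cytokines (SD, n = 3 each), a difference of 0.74. For HLA-E to HLA-B it was -1.42 ± 0.07 and -1.62 ± 0.10, a difference of -0.20. Neither ratio overlapped between the groups, and each gave p = 0.1 in the exact permutation test (0.133 adjusted).

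As a share of the counts of HLA-B, HLA-C, HLA-E and HLA-F, HLA-B went from 31.2% ± 1.69 to 44.6% ± 1.54 (SD, n = 3 each). HLA-C took 56.1% ± 1.83 of these counts in untreated and 38.4% ± 2.00 in treated cells. HLA-E went from 11.7% ± 0.197 to 14.5% ± 0.894 and HLA-F from 1.04% ± 0.133 to 2.50% ± 0.195. In each of the 4 shares, the 3 untreated libraries lay apart from the 3 treated ones.

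HLA-G (ENSG00000204632; chromosome 6, 29826967 to 29831125), best known from the placenta, had 0 counts in all 6 libraries and was not tested. The limit that a count of 0 allows, 3 counts, corresponds to between 0.681 and 0.827 CPM in a library before normalisation and covers counting error alone. HLA-G was thus not detected in these counts, with or without the cytokines.

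HLA class I genes are close paralogs. Neither the option to count multi-mapping reads nor the option to count a read for several genes was set, per the file headers, so reads could be split among the paralogs or left uncounted. Among the class I pseudogenes, HLA-K was called higher, with 23, 15 and 13 counts without and 57, 104 and 66 with the cytokines (log2 fold change 2.19, SE 0.33, edgeR adjusted p 0.00351). HLA-H had 8, 8 and 15 counts against 18, 18 and 20, or 0.96 in log2 (SE 0.38; adjusted p 0.201, edgeR). How many reads of each heavy chain were placed on another copy was not tested. No exon of another gene on the same strand overlapped the exonic bases of HLA-B, HLA-C, HLA-E, HLA-F, HLA-G, B2M or MICB in the annotation, and for MICA 1.61% of exonic bases did.

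B2M (ENSG00000166710; chromosome 15, 44711487 to 44718851), the light chain common to these heavy chains, was the most variable of the genes that rose. It stood at 321, 404 and 756 CPM in untreated replicates 1, 2 and 3, and the treated replicates stood at 1881, 3423 and 3598 CPM. Untreated replicate 3 and treated replicate 1 lay apart from the rest of their groups, yet the groups did not overlap. B2M rose 6.01-fold, which is 2.58 in log2 (SE 0.37; adjusted p 0.00253, edgeR). Its coefficient of variation was 46.8% in untreated libraries, where HLA-B, HLA-C, HLA-E and HLA-F had between 5.26% and 10.6%.

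The spread of B2M went with the second principal component of all tested genes, though not in strict order. This component held 27.1% of the variance. Scores on it were 35.3, 7.30 and -49.5 in untreated and 34.0, -17.9 and -9.22 in treated replicates 1, 2 and 3. The log2 CPM of B2M departed from its group mean by -0.52, -0.19 and 0.71 and by -0.60, 0.26 and 0.34 in the same libraries. It was low where the score was high, but treated replicates 2 and 3 were out of order. In untreated replicate 3, HLA-C departed by 0.17, MICA by -0.45 and MICB by -0.35. The part of this axis in the results was not tested. Untreated replicate 3, the library at the far end of this axis, also held the most untreated counts of the peptidase ERAP1 (127, against 30 and 45). The same was so for the peptide loading genes TAPBP, CALR, CANX and PDIA3, and not for TAP1, TAP2, TAPBPL and ERAP2. Without untreated replicate 3 the log2 fold change of B2M was 3.03, and without treated replicate 1 it was 2.84, with edgeR adjusted p of 2.21e-05 and 0.00196.

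The number of light chain counts per heavy chain count varied between replicates and overlapped between the groups. For each count of HLA-B, HLA-C, HLA-E or HLA-F there were 0.352, 0.436 and 0.721 counts of B2M in untreated and 0.311, 0.629 and 0.515 in treated replicates. The group means were 0.503 ± 0.194 and 0.485 ± 0.161 (SD, n = 3 each). The log2 ratio of B2M to HLA-B differed by -0.56 between the groups, against an SD of 0.60 in untreated and 0.52 in treated libraries (exact permutation p = 0.4).

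**Figure D3:**
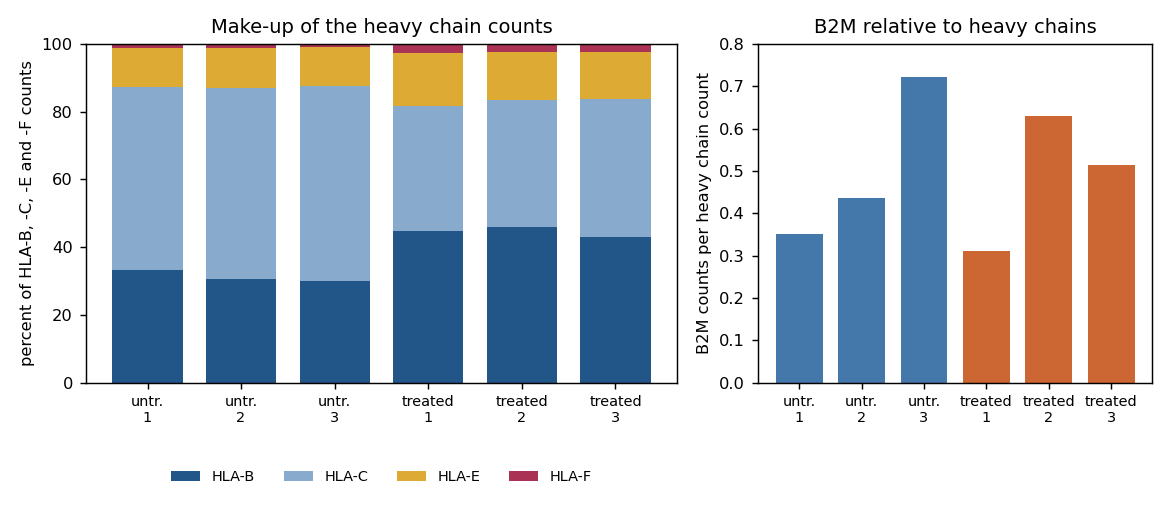
Left, each library's counts of HLA-B, HLA-C, HLA-E and HLA-F as a percent of their sum; right, B2M counts per count of these 4 genes, by library. HLA-C is the largest share in all untreated libraries and HLA-B in all treated ones, while the B2M ratio runs from 0.352 to 0.721 in untreated and from 0.311 to 0.629 in treated libraries.

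Of the MIC genes, MICB was called higher and MICA was not called. MICB (ENSG00000204516; chromosome 6, 31494881 to 31511124) was at 10.2, 9.78 and 6.78 CPM in untreated and at 20.4, 19.1 and 20.2 CPM in treated replicates, from 30 to 39 and from 71 to 85 counts. The groups were apart, and the rise of 2.23-fold (log2 fold change 1.16, SE 0.25) passed the threshold with an edgeR adjusted p of 0.0221. It did not pass without untreated replicate 2 (0.0786) or without treated replicate 1 (0.0701), 2 (0.063) or 3 (0.0895).

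MICA (ENSG00000204520; chromosome 6, 31399784 to 31415315) was at 71.7, 71.5 and 44.3 CPM in untreated replicates and at 40.9, 37.1 and 45.2 CPM in treated ones. Untreated replicate 3 fell within the treated range, and the log2 fold change of -0.61 (SE 0.23) did not pass the threshold in edgeR (adjusted p 0.177). Without untreated replicate 3 MICA was called lower, at -0.81 in log2 (adjusted p 0.0186, edgeR), where 4.35% of all genes were called lower. DESeq2 and limma voom gave adjusted p of 0.22 and 0.213. None of the 8 genes was called lower in edgeR, DESeq2 or limma voom with all 6 libraries, where 2.55%, 3.14% and 2.34% of all genes tested were called lower. At an unadjusted p under 0.05 in edgeR there was 1 of the 7 tested, MICA, and 8.85% of all genes tested were lower at that threshold.

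The ratio of the 2 MIC genes within a library did not overlap between the groups. Per count of MICA there were 0.145 counts of MICB in untreated and 0.488 in treated cells, and the log2 ratio of MICB to MICA went from -2.80, -2.85 and -2.69 to -0.99, -0.95 and -1.16. This ratio was added after the data were examined. The difference of 1.75 was many times the SD of 0.09 and 0.11. Untreated replicate 3, the lowest of its group in both genes, had a ratio close to the other 2 untreated replicates. The exact permutation test gave p = 0.1, and 0.125 after adjustment over 5 ratios.

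**Figure D4:**
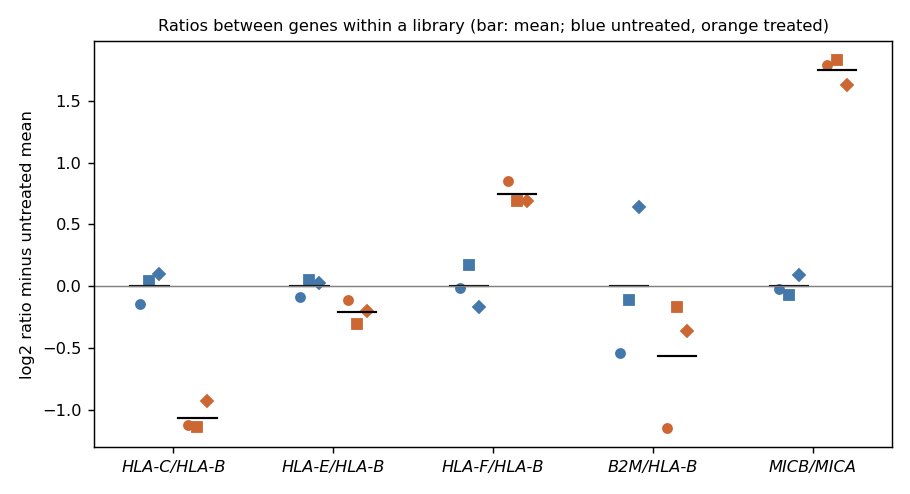
Log2 ratio of counts between 2 genes in each library, minus the untreated mean, for untreated (blue) and treated (orange) replicates, with bars for the means. Groups are apart for HLA-C, HLA-E and HLA-F relative to HLA-B and for MICB relative to MICA, and overlap for B2M relative to HLA-B.

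Levels were ordered per kilobase of exonic sequence, from the exonic lengths in the files (a read counts once whatever the length of its transcript, so genes with short annotation stand higher on this scale). In untreated cells HLA-C led at 216 ± 22.8 CPM per kilobase (SD, n = 3), followed by HLA-B at 99.6 ± 5.24, B2M at 90.7 ± 42.4, HLA-E at 38.5 ± 2.39, MICA at 16.2 ± 4.09, MICB at 3.18 ± 0.662 and HLA-F at 2.30 ± 0.148. The ranges over libraries overlapped for HLA-B and B2M, and for MICB and HLA-F. In treated cells the order was HLA-C at 947 ± 167, HLA-B at 909 ± 83.5, B2M at 545 ± 174, HLA-E at 306 ± 40.5, HLA-F at 35.5 ± 3.77, MICA at 10.7 ± 1.05 and MICB at 7.11 ± 0.253. There HLA-C and HLA-B overlapped, and HLA-F, below MICB on this scale in each untreated library, stood above both MIC genes in every treated one. Before division by length, untreated HLA-F was at 9.91, 10.6 and 9.27 CPM and MICB at 10.2, 9.78 and 6.78 CPM in replicates 1, 2 and 3. HLA-F was thus below MICB in untreated replicate 1 alone. Without division by length the order of the leading genes differed, with B2M at 2967, HLA-B at 2736 and HLA-C at 2375 CPM in treated cells and HLA-C at 540.5, B2M at 494 and HLA-B at 300.0 CPM in untreated cells.

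Other genes of the class I pathway were read from the same fit. Of 9 peptide loading genes 4 were called higher and 0 lower, against 5.58% and 2.55% of all genes tested. Their median log2 fold change was 1.59, against -0.03 over all genes tested. TAP1 and TAP2, which form the peptide transporter, had log2 fold changes of 4.59 (SE 0.19) and 3.51 (SE 0.27). Tapasin (TAPBP), which bridges the transporter and the heavy chain, had 2.11 (SE 0.25), and the related editor TAPBPL also 2.11 (SE 0.23), and all 4 were called. The trimming peptidases ERAP1 and ERAP2 had 1.54 (SE 0.42) and 1.59 (SE 0.42) with edgeR adjusted p of 0.0594 and 0.0537. The chaperones CALR, PDIA3 and CANX had 0.55, 0.85 and 0.06 (SE 0.16, 0.25 and 0.27) and were not called. DESeq2 called 7 of the 9, adding ERAP1, CALR and PDIA3, where 6.48% of all genes were called higher. Without untreated replicate 3, edgeR also called ERAP1 and PDIA3 at 2.27 and 1.11, where 7.16% of all genes were called higher. ERAP1 was past the threshold in 7 of the 13 alternatives.

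All 4 tested genes of the immunoproteasome and its activator were called higher (median log2 fold change 2.65), against 5.58% of all genes tested. PSMB9, a catalytic subunit, averaged 87.9 ± 7.43 CPM without and 1344 ± 137 CPM with cytokines (SD, n = 3 each), and PSMB10 was not tested. PSME2 was not past the threshold without untreated replicate 2 (edgeR adjusted p 0.0703) or without treated replicate 1 (0.051).

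Of 13 transcription factors of class I genes, 12 were tested. Of these 5 were called higher and 0 lower, against 5.58% and 2.55% of all genes tested. The median log2 fold change was 0.56. NLRC5, the class I transactivator, averaged 11.8 ± 1.07 CPM without and 100.6 ± 16.0 CPM with cytokines (SD, n = 3 each; 3.09 in log2, SE 0.21). IRF2 rose from 9.58 ± 1.16 to 45.7 ± 3.29 CPM and the NF-kappaB subunit RELA from 101 ± 22.9 to 313 ± 64.1 CPM, log2 fold changes of 2.25 and 1.63. IRF1, an interferon regulatory factor, had the highest log2 fold change of the list, at 5.29. RFX5, a subunit of the X box complex, had 0.71 (SE 0.18; adjusted p 0.047, edgeR) and was not past the threshold in 8 of 13 alternatives. Its partner RFXANK had -0.24 (SE 0.21), and the Y box subunits NFYA, NFYB and NFYC had -0.16, -0.06 and 0.23 (SE 0.30, 0.55 and 0.20). NFKB1, CREB1 and ATF1 had 0.64, 0.48 and 0.17 (SE 0.18, 0.32 and 0.37). None of these 7 was called, and RFXAP was not tested.

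**Figure D5:**
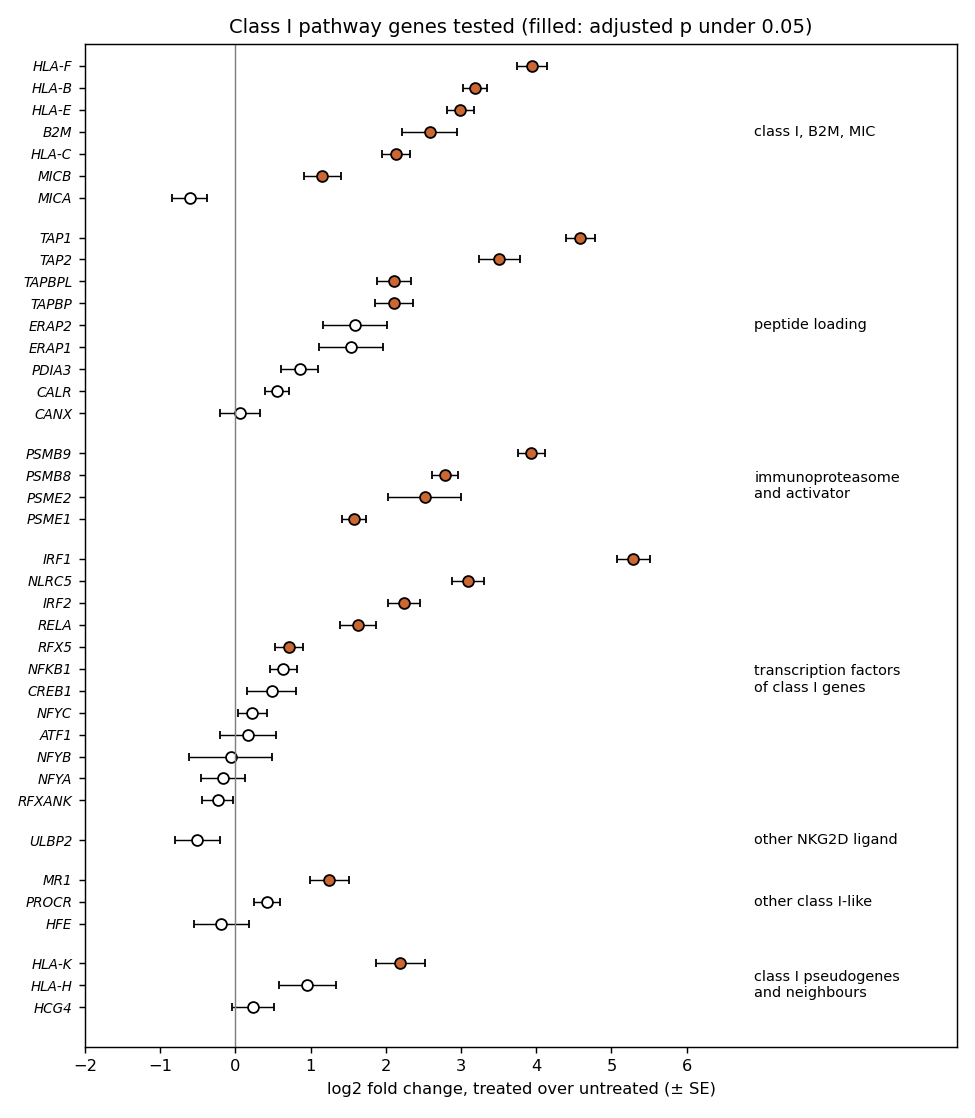
Log2 fold change (treated over untreated, ± SE) of every tested gene of the class I pathway lists, by list; filled points had an adjusted p under 0.05 in edgeR. All filled points lie to the right of 0, and the points to the left of 0, all open, are MICA, ULBP2, RFXANK, HFE, NFYA and NFYB.

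The remaining NKG2D ligands, apart from ULBP2, had too few counts to be tested. ULBP2, the 1 of 6 that passed the filter on low counts, averaged 11.3 ± 2.17 CPM without and 7.91 ± 1.60 CPM with cytokines (SD, n = 3 each), with overlapping groups and a log2 fold change of -0.51 (SE 0.30; adjusted p 0.417, edgeR). Of 10 other class I-like genes 3 were tested. MR1, which presents vitamin metabolites to T cells, was called higher, from 13.7 ± 4.04 to 32.8 ± 4.83 CPM (log2 fold change 1.25, SE 0.27, edgeR adjusted p 0.02). It was not past the threshold without untreated replicate 2 (0.0988), without treated replicate 3 (0.0914) or with library totals alone (0.0538). PROCR and HFE had log2 fold changes of 0.42 and -0.19 (SE 0.18 and 0.37) and were not called.

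For HLA-B, HLA-C, HLA-E, HLA-F and B2M, the genes with the most similar profiles were taken as those with the smallest root mean square difference in log2 CPM over the 6 libraries, each profile centred on its untreated mean, among 6734 genes of at least 10 CPM on average. HLA genes were left out. RNF213 and IL32 lay closest to HLA-B, at 0.14 each, and ASPHD2 at 0.19. For HLA-C the closest were NUB1 and IRF2, both at 0.13, and RASSF4 at 0.17. SHFL and IL32 lay closest to HLA-E, at 0.15 each, followed by ACSL5 at 0.16. PSMB9 lay closest to HLA-F, at 0.09, and OAS3 and UBE2L6 followed at 0.19 and 0.21. For B2M it was SLFN5 at 0.11, with NMI and ITGA6 at 0.19 and 0.20. The limit of 10 CPM applied to the mean over all 6 libraries. ASPHD2, IRF2, SLFN5 and ITGA6 were below it in untreated cells (2.44, 9.58, 7.75 and 7.46 CPM) and passed through their treated levels. The fitted log2 fold change of ASPHD2 was 3.54. This ranking is a description of likeness over 6 libraries that share the treatment, with no test.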

How the data were processed

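Counts are those deposited by the authors, 1 whole number per gene and library, made with featureCounts 2.0.1 in long-read mode on exons of Ensembl 105 (GRCh38) with strand-specific counting, per the file headers. The submitters' processing notes name featureCounts 2.0.0, minimap2 2.24 and SAMtools 1.16. In all 6 headers the alignment's name includes dmso, a vehicle the labels do not mention, and groups were taken from the sample titles instead. Symbols matched 61369 of 61541 identifiers.

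Counts were tested with edgeR 4.0.16 in R 4.3.3 (quasi-likelihood F test, TMM normalisation, filterByExpr, group as the sole term), with Benjamini-Hochberg adjustment over all 10067 genes kept and a threshold of 0.05. SE was computed as the size of the log2 fold change over the square root of F. CPM uses library totals scaled by TMM factors. Within-library ratios had 0.5 added to each count and were compared with 2-sided exact permutation tests. Likeness used log2 CPM with a prior count of 2 and the 3 closest genes for each of 5 members, leaving out MICA and MICB. Alternatives used DESeq2 1.42.0, limma 3.58.1 and the settings named in the closing section, and the fits were tested on simulated data. The genes named are the 8 members, tested genes of the lists, and the closest profiles, 1 further gene, left out of the transcription factor list and its counts, is not reported here, and the members and lists were chosen with earlier results of these data known. Promoter identity came from global alignment in Biopython 1.88.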

Additional observations from a re-analysis of the deposited data

How the results depend on the processing

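The rises of HLA-B, HLA-C, HLA-E, HLA-F and B2M kept their direction and stayed past the threshold in all 65 refits (13 alternatives for each of the 5 genes), with log2 fold changes from 3.08 to 3.30, 1.99 to 2.28, 2.87 to 3.15, 3.84 to 4.08 and 2.38 to 3.03. MICB passed in 9 of 13 alternatives and MICA in 1, without untreated replicate 3, so that between 0 and 1 of the 8 genes were called lower when 1 library was left out, and either 5 or 6 higher. All 35 recomputed ratios kept their sign. The count of all genes called, 819, was 1328 with no filter beyond a single count and ran from 455 to 1178 without 1 library (455 without treated replicate 3 and 465 without untreated replicate 2). Library totals alone split the calls into 485 higher and 364 lower, against 562 and 257, and moved the median over all genes from -0.03 to -0.13 in log2. Peptide loading calls rose from 4 to 7 in DESeq2. Calls among other class I-like genes went from 1 to 0 with library totals and ranged from 0 to 1 without 1 library. The rise in the summed share of counts, 0.73 percentage points, was 0.49 with B2M left out, an alternative chosen after seeing the data, as were the MICB to MICA ratio and the shorter motif. Apart from what the settings themselves change, the cause was not tested.

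With the replicate number as a block, 1513 genes were called, 8 of them peptide loading genes (9.01% of all genes were called higher), and the calls among the 8 genes described were the same 6 higher and 0 lower. Deviations of same-numbered libraries from their group means correlated at 0.65, -0.004 and 0.37 over 10067 genes, and not every library correlated best with its own number (untreated replicates 2 and 3 and treated replicate 2 did not), so the samples share a number and were not treated as pairs. HLA-G and the scarcest genes of the lists had no or few counts at this depth, and the cause was not tested.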
